A study of Mus musculus with 57 samples.

Results

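The 8 genes described here, Adipoq, Lpl, Pparg, Fabp4, Plin1, Cd36, Zfp423 and Apoe, are adipocyte lineage genes that were chosen by name, out of 56332 genes in the count table. They were followed across 57 RNA-seq libraries of mouse bone marrow, with the sorted stromal cells labelled MSC as the population of interest. All mice were male C57BL/6 animals, 8 weeks old when treatment began, that received an antibody against PAPP-A (aPAPPA) or a control antibody for 4 weeks. PAPP-A is a secreted metalloprotease that cleaves insulin-like growth factor binding proteins.

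The treated groups came from aPAPPA mice and comprised 4 libraries of MSC, 4 of HSC, 4 of CLP, 4 of GMP, 4 of MEP and 6 of Myeloid cells. The control antibody groups comprised 6 libraries of MSC, 3 of HSC, 4 of CLP, 4 of GMP, 4 of MEP and 6 of Myeloid cells, and 4 libraries of unsorted whole bone marrow (WBM), for which no treated library was analysed here. HSC, CLP, GMP and MEP are the usual names of hematopoietic stem cells and of common lymphoid, granulocyte-monocyte and megakaryocyte-erythroid progenitors. The labels give neither the surface markers of any sort nor the number of mice in a pool. Each library came from 1 mouse pool, and the pool is the replicate. The labels also give a batch, A, B or C, without saying what it stands for. Treated MSC were pool 8 in batch A and pools 16, 18 and 20 in batch C, and control MSC were pools 3, 5 and 7 in batch A and pools 15, 17 and 19 in batch C.

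Total counts were 321860 to 21812576 per MSC library, 107412 to 9023967 for HSC, 587316 to 8279964 for CLP, 5111810 to 85017600 for GMP, 6886882 to 42471152 for MEP, 14760577 to 125537299 for Myeloid and 14980773 to 37113006 for WBM. The MSC libraries of batch A were shallow, with 499300 counts in aPAPPA pool 8 and 3753007, 1431006 and 321860 counts in control pools 3, 5 and 7, against at least 15318825 in every MSC library of batch C. Levels are given as CPM, a gene's counts out of 1000000 counts of its library after TMM scaling, and comparisons as log2 differences with their SE from edgeR's quasi-likelihood test. The TMM factor of control MSC pool 7 was 0.501, so its CPM are well above those from its plain total. A gene was called when its p, adjusted over all genes tested in that comparison by the Benjamini-Hochberg method, was under 0.05.

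Adipocytes form from mesenchymal precursors under the nuclear receptor PPARγ, encoded by Pparg, which with the C/EBP factors switches on the genes for taking up, binding and storing fat. Zfp423 encodes a zinc finger factor known from mouse preadipocytes, where it acts upstream of Pparg. Adipoq encodes the secreted hormone adiponectin, Lpl the lipase that frees fatty acids from circulating lipoproteins, Cd36 a fatty acid receptor, Fabp4 a cytosolic fatty acid binding protein, Plin1 the perilipin that coats the lipid droplet of fat cells, and Apoe a lipoprotein component made by many cell types. In mouse marrow, stromal cells that express Cxcl12 and Lepr are known to transcribe several of these genes without being fat-filled adipocytes.

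On the GRCm38 build, the genes lie at chr16:23146536-23158028 (Adipoq, plus strand), chr8:68880491-68907448 (Lpl, plus), chr6:115360951-115490399 (Pparg, plus), chr3:10204088-10208576 (Fabp4, minus), chr7:79720218-79732903 (Plin1, minus), chr5:17781690-17888801 (Cd36, minus), chr8:87661810-87959595 (Zfp423, minus) and chr7:19696109-19699188 (Apoe, minus). The annotated gene Gm44079 overlaps Pparg on the opposite strand, and since it is not stated whether counting used strand, reads of the pair may not be told apart. The 250 bases before the annotated start are shown for Adipoq, Zfp423 and Apoe, the members that stood highest in MSC over the other populations and the member that was abundant outside it. They are from RefSeq on GRCm38.p6, 5′ to 3′ on the gene's strand, at chr16:23146286-23146535 (plus), chr8:87959596-87959845 (minus) and chr7:19699189-19699438 (minus). Of the 8 genes, 6 matched this promoter table. Capitals mark a C/EBP core, TTNCNNAA, in Adipoq and Zfp423, and an EBF core, CCCNNGGG, in Apoe.
Adipoq: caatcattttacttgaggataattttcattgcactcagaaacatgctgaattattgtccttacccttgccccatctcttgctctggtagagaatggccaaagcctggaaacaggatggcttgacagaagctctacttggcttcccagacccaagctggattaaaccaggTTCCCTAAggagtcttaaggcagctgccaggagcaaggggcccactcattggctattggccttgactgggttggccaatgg
Zfp423: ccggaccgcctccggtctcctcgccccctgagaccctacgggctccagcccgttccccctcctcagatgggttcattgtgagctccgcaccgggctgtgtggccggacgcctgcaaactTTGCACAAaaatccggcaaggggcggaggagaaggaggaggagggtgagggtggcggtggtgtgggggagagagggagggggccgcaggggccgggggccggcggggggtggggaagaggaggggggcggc
Apoe: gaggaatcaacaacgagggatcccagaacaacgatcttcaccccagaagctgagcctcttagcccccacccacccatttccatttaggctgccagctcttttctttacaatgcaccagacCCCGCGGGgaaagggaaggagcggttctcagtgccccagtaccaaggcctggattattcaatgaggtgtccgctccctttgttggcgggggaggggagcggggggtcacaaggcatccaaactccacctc
Both strands were searched, and a match is a description of these letters, not of a bound site. TTNCNNAA was present in 36.8% and CCCNNGGG in 11.8% of 32851 promoter windows of the same length, so neither is rare. The nuclear receptor core AGGTCA was present in 14.0% and TATAAA in 12.4% of them.

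The MSC label was checked against 12 marker genes of adipo-lineage stroma, all of which had counts in MSC. Their summed level was 54100 to 79630 CPM in aPAPPA MSC and 39520 to 74100 CPM in control MSC, against 682 to 1355 CPM in WBM. Among them, the chemokine gene Cxcl12 averaged 44970 CPM in aPAPPA MSC and 39130 CPM in control MSC, the acute phase gene Hp 7535 and 6268 CPM, and the growth factor gene Gas6 4014 and 3116 CPM. Markers of mature, fat-filled adipocytes were low. Cidec, Plin5, Itln1 and Ucp1 were at 0 in all 10 MSC libraries, while the glucose transporter gene Slc2a4 averaged 11.1 CPM in aPAPPA MSC and 13.7 CPM in control MSC and Adrb3 7.08 and 6.15 CPM. Of 6 of these markers that could be tested, Slc2a4, Adrb3, Plin4 and Cfd were higher in control MSC than in the other sorted populations (median log2 difference 3.15). Plin4 and Cfd averaged only 0.692 and 2.16 CPM in control MSC. The 10 genes summed to 6.54 to 27.0 CPM in aPAPPA MSC and 16.0 to 33.2 CPM in control MSC. Osteoblast markers were also high, summing to 9936 to 17530 CPM in aPAPPA MSC and 11170 to 28630 CPM in control MSC. Neutrophil markers summed to 1776 to 13530 CPM in aPAPPA MSC and 1283 to 8421 CPM in control MSC, against 57040 to 112300 CPM in WBM. In bulk libraries, fewer cells of a type and less RNA per cell cannot be told apart.

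Within MSC, the members differed widely in level. Per kilobase of exon, the mean levels in aPAPPA and control MSC were 2250 and 1853 CPM for Apoe, 1006 and 1100 for Adipoq, and 312 and 203 for Lpl. The regulators were far lower, at 36.5 and 24.4 CPM per kilobase for Pparg and 6.27 and 6.57 for Zfp423. Fabp4, one of the most abundant transcripts of fat tissue, stood at 5.99 and 6.48, while Cd36 at 1.19 and 0.367 and Plin1 at 0.258 and 0.0665 were the lowest of the 8. The length used is the union of all annotated exons, which can exceed the length of the mRNA. For Fabp4 it was 4489 bases, the whole span of the gene, so its level per kilobase may be too low. Its rank beside Zfp423 and Pparg depends on that length. So the stromal cells carried much mRNA for the secreted hormone, the secreted lipase and the apolipoprotein, and little for the droplet coat and the fatty acid receptor.

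**Figure D1:**
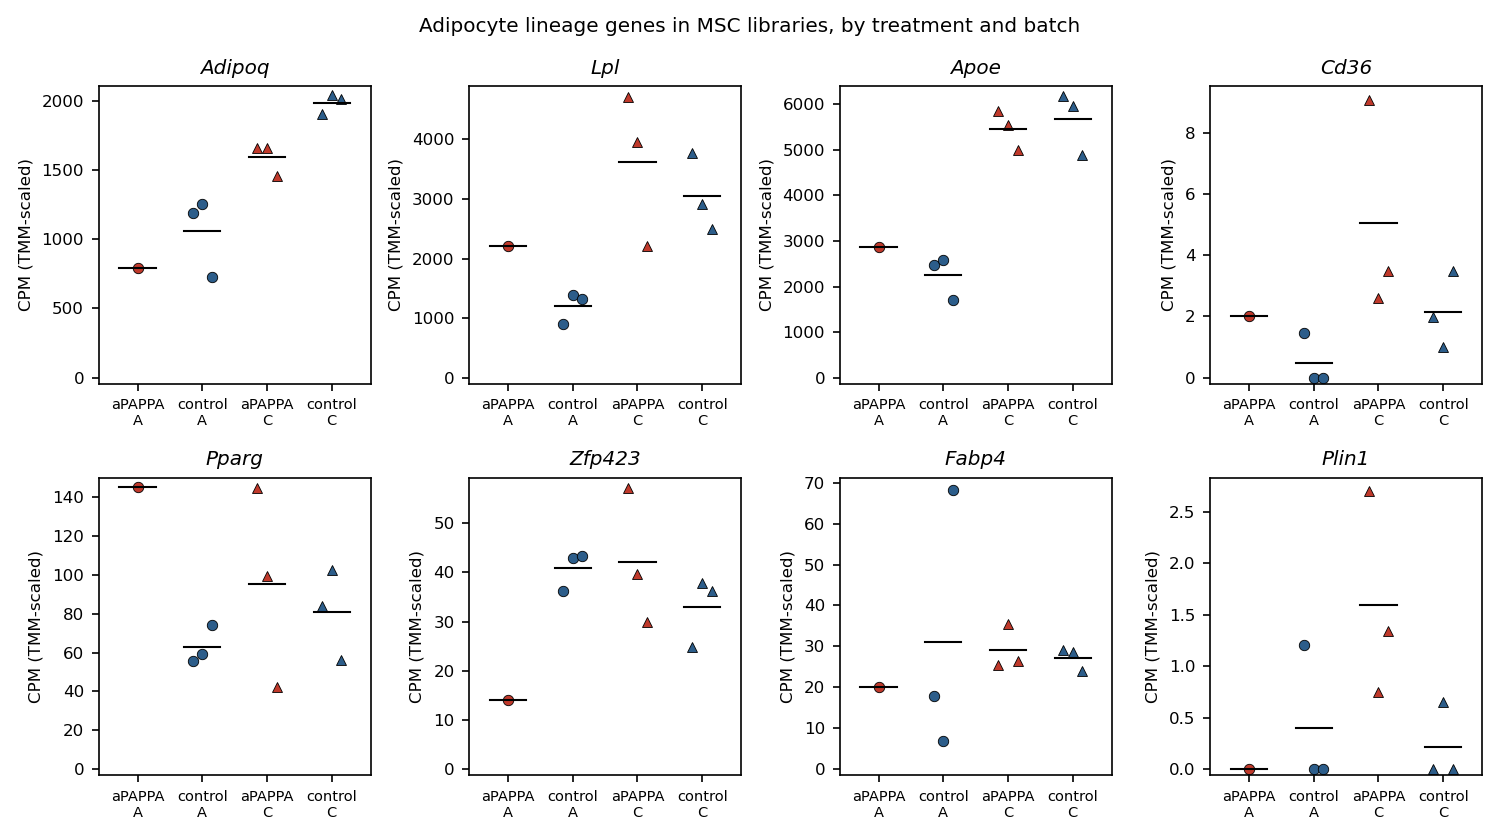
CPM of each of the 8 genes in every MSC library, aPAPPA left of control, with batch A as circles and batch C as triangles and a line at the mean of each treatment and batch. Adipoq, Lpl and Apoe were the highest genes and on average were higher in batch C than in batch A, and Plin1 stayed at or below 2.70 CPM.

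Set against the mean of the 5 other sorted populations of control mice, 6 of the 7 members that could be tested were higher in control MSC, and Cd36 was not called. Of 19721 genes tested, 9941 (50.4%) were called in this comparison, 29.2% higher in MSC and 21.2% lower, so a call by itself is common and the sizes carry the description. Set against WBM, 6 of 7 members were higher in control MSC and Cd36 was lower, where 8440 of 17169 genes (49.2%) were called, 23.1% higher and 26.1% lower. Plin1 was filtered out of both comparisons for low counts.

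Adipoq, the adiponectin gene, had the largest difference of the 8. Control MSC averaged 1520 ± 543 CPM (SD, n = 6), with every library between 725.5 and 2039 CPM. The next population, control Myeloid cells, averaged 0.693 CPM, WBM 0.586 CPM and MEP 0.0706 CPM, and all 3 control HSC libraries were at 0. The level in MSC was 2721 times that in WBM (95% counting interval 2127 to 3541) and at least 16230-fold higher than in HSC, taking a floor of 3 counts over the group. The log2 difference was 14.38 (SE 0.464, adjusted p = 1.22e-17) against the other 5 populations and 10.90 (adjusted p = 4.78e-09) against WBM. Counting intervals and floors here cover counting error only.

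Zfp423, the preadipocyte factor, was the next most restricted, at 36.9 ± 6.76 CPM in control MSC and at most 0.353 CPM on average in the other control groups, of which CLP was highest. Its log2 difference was 9.12 (SE 0.478, adjusted p = 9.55e-15) against the other sorted populations and 8.58 (adjusted p = 2.37e-08) against WBM.

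Pparg averaged 71.9 ± 18.8 CPM in control MSC, against 2.98 CPM in WBM, 2.00 in Myeloid, 1.82 in CLP, 1.21 in HSC, 0.425 in GMP and 0.333 in MEP. No MSC library overlapped any WBM library, the ranges of WBM, Myeloid, CLP and HSC each overlapped the next in that order, and those of HSC and GMP did not. The log2 difference was 5.96 (SE 0.33, adjusted p = 6.32e-15) against the other sorted populations and 4.37 (adjusted p = 1.93e-07) against WBM.

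Lpl, the lipase gene, averaged 2130 ± 1110 CPM in control MSC, against 36.6 CPM in Myeloid, 28.9 in WBM, 10.7 in HSC, 9.12 in CLP, 7.66 in GMP and 4.26 in MEP. It was 86.3 times higher in MSC than in WBM (counting interval 83.2 to 89.6). Unlike Adipoq, it averaged several CPM in every hematopoietic population, although control CLP pools 5 and 7 had 0 counts. The log2 differences were smaller than those of Adipoq, at 7.01 (SE 0.362, adjusted p = 3.76e-14) against the sorted populations and 5.68 (adjusted p = 5.22e-09) against WBM.

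Apoe was the most abundant member in MSC and also the most widely expressed elsewhere. It averaged 3963 ± 1946 CPM in control MSC, 343 CPM in HSC, 303 in MEP, 128 in WBM, 114 in Myeloid, 49.7 in GMP and 16.3 in CLP. The ratio of MSC to HSC was 11.8 (counting interval 11.5 to 12.0), and that of MSC to CLP was 241. No MSC library overlapped any HSC library, and no GMP library any CLP library, while the other neighbours in that order overlapped. The log2 difference was 4.86 (SE 0.183, adjusted p = 1.24e-18) against the sorted populations and 4.40 (adjusted p = 2.22e-05) against WBM.

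Fabp4, the fatty acid binding protein gene, separated MSC from the sorted blood populations but much less from whole marrow. It averaged 29.1 ± 20.9 CPM in control MSC, 6.85 CPM in WBM, 1.35 in Myeloid and at most 0.221 in HSC, CLP, GMP and MEP, and the ranges of MSC and WBM overlapped. Against the sorted populations, its log2 difference was 7.16 (SE 0.547, adjusted p = 7.87e-12). Against WBM it was 1.64 (SE 0.505, adjusted p = 0.015). With mouse pool as a block that difference was 1.56 and the call was lost (adjusted p = 0.0849).

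Cd36, the fatty acid receptor gene, did not mark the stroma. It averaged 1.32 ± 1.32 CPM in control MSC, against 18.3 CPM in WBM, 5.84 in MEP, 4.38 in CLP, 2.74 in Myeloid, 1.47 in HSC and 0.0173 in GMP. It was lower in MSC than in WBM by a log2 difference of -4.02 (SE 0.584, adjusted p = 5.94e-05), and the difference from the sorted populations was -0.43 (SE 0.966, adjusted p = 0.764). Plin1 was near the floor of detection throughout, at 0.309 CPM in control MSC and 0.071 CPM in WBM, with 0 counts in control HSC, GMP and Myeloid libraries. As genes of the stromal adipocyte lineage, 6 of the 8 stood higher in MSC, while the level of Cd36 goes against that label in these libraries. Plin1 was highest in MSC, at 5.81 times WBM (counting interval 2.67 to 15.8), but rested on 16 counts in 2 of 6 libraries.

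**Figure D2:**
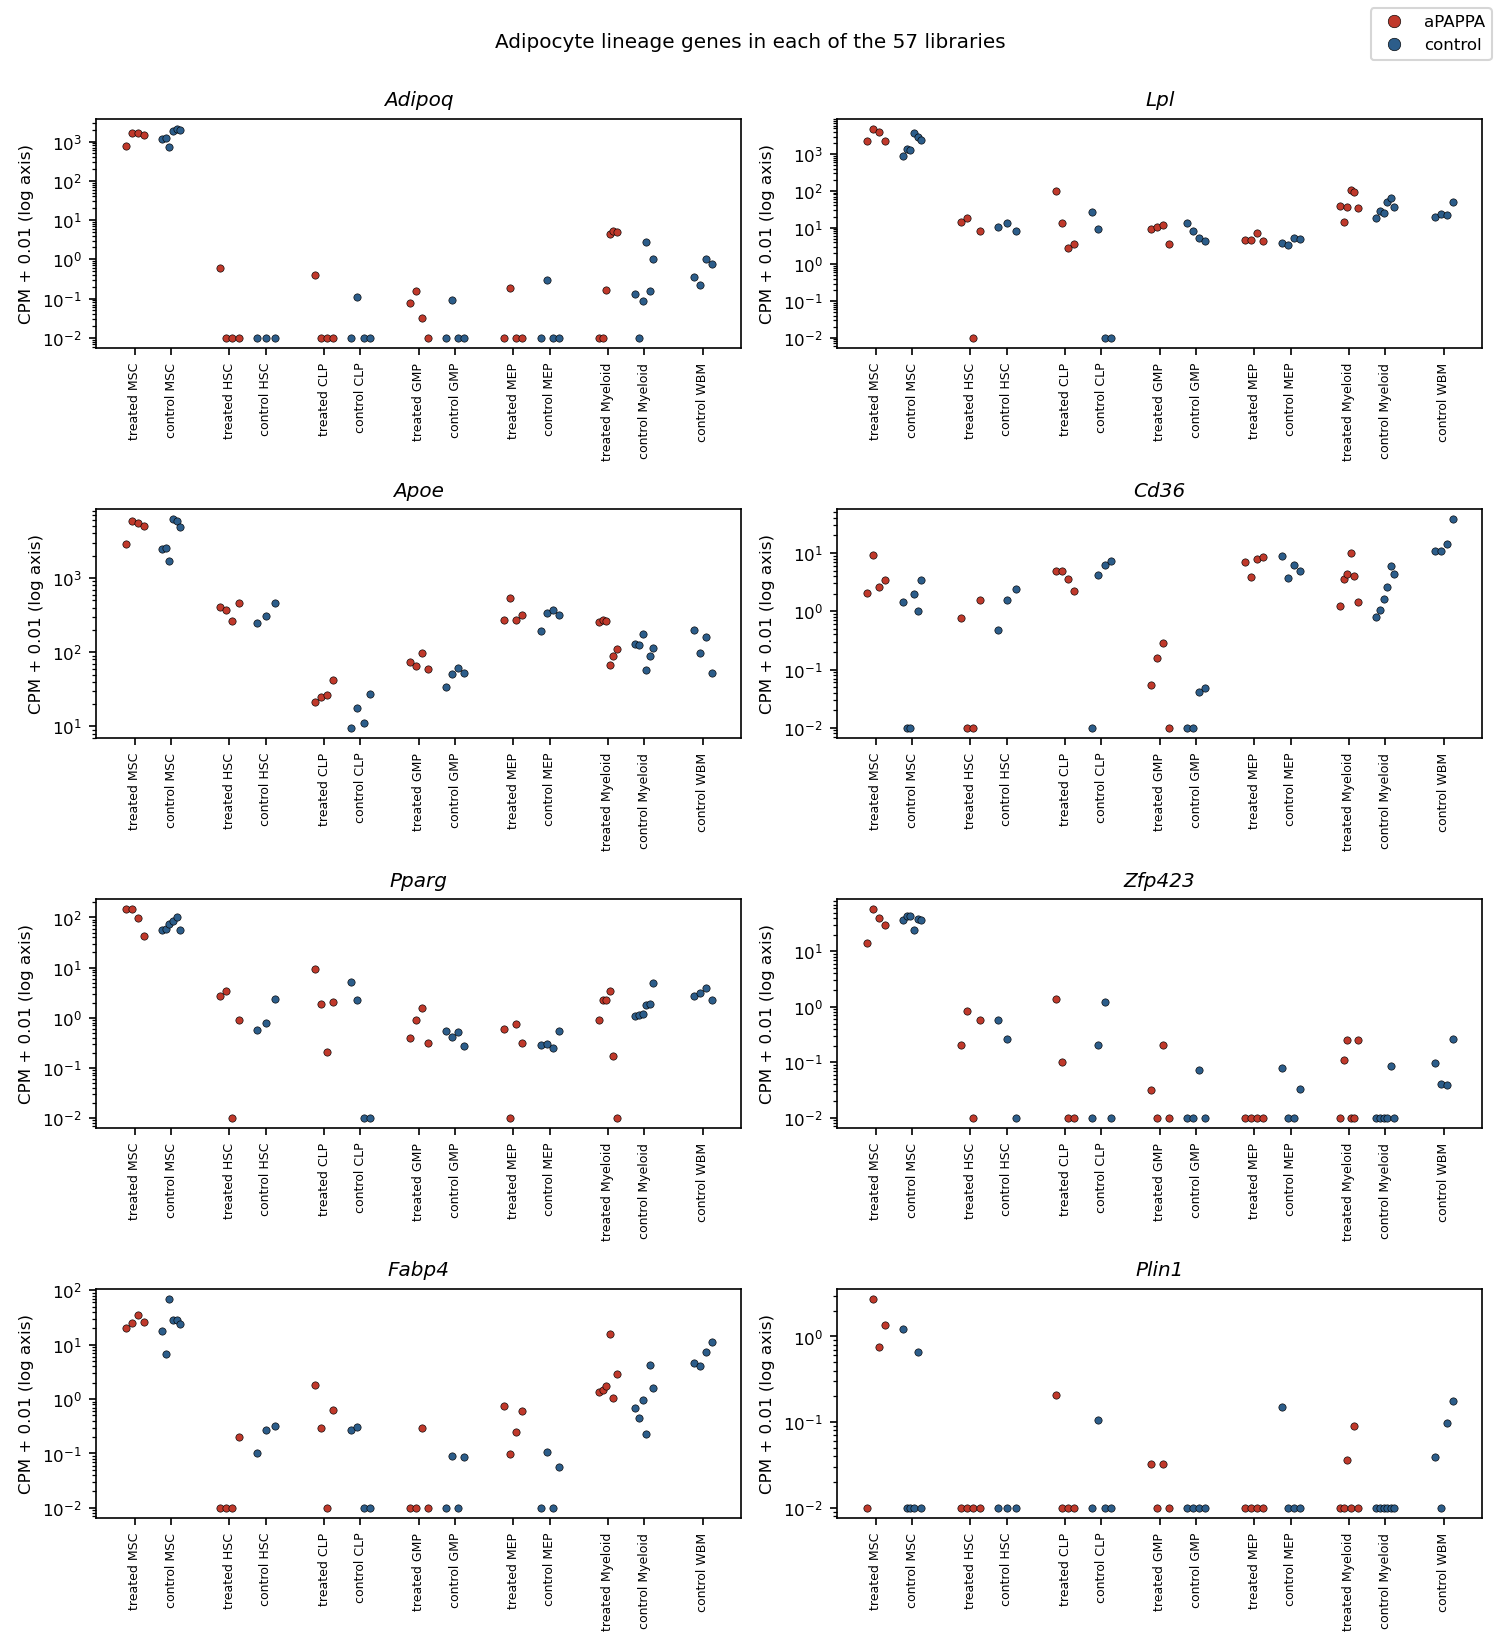
CPM plus 0.01 on a log axis for each of the 8 genes in all 57 libraries, by population and treatment, MSC first and aPAPPA left of control. Adipoq and Zfp423 stand apart in MSC, Apoe and Lpl are detected in every population, and Cd36 is highest in WBM.

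The lists of other fat-cell genes, which leave out the 8 members, showed the same uneven picture in control MSC against the mean of the other sorted populations. Of 21 tested adipogenic regulators, 14 were higher, none were lower and 7 were not called (median log2 difference 2.88, against 0.12 over all genes). The largest differences in that list were those of the early B-cell factor gene Ebf3 (13.04), the morphogen gene Bmp4 (10.86) and the Krüppel-like factor gene Klf15 (9.56). Of 12 tested genes listed as inhibitors of adipogenesis, 7 were higher and 2 lower in MSC (median 1.61). The largest differences were those of Sfrp1 (9.04), the nuclear receptor gene Nr2f2 (8.92) and Id3 (7.03). Sfrp1 encodes a Wnt antagonist, and since Wnt signals are known to restrain adipogenesis, its known action goes against the name of the list. Of 15 tested genes of lipid uptake and lipoproteins, 11 were higher and 3 lower (median 3.23), with the apolipoprotein D gene Apod at 11.45, the phospholipid transfer gene Pltp at 9.92 and the caveolin gene Cav1 at 7.19. Without control MSC pool 3 the Cav1 difference was 0.61 and was not called (adjusted p = 1).

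Genes that fill and hold a fat store stood on both sides, beside 29.2% of all genes higher and 21.2% lower. Of 12 tested genes of lipid droplets and lipolysis, 4 were higher and 2 lower (median 0.10), with Plin4 at 3.56 and the lipase inhibitor gene G0s2 at 3.32. Plin4 was near the floor, at 0.692 CPM on average in control MSC (range 0 to 3.62 CPM) and 0 in aPAPPA MSC. Plin5 was listed at 0 in every MSC library, and its fitted difference carries no meaning in size. Against WBM, none of 10 tested droplet genes were higher in MSC and 4 were lower (median -1.06, against -0.22 over all genes). Fatty acid and triglyceride synthesis genes split evenly, with 4 higher and 4 lower of 14 tested (median 0.30). Among them, malic enzyme 1 (Me1, 6.69) and the desaturase gene Scd1 (5.83) were higher in MSC, and the ATP citrate lyase gene Acly was lower (-1.91). Of 14 tested adipokines and hormone inputs, 7 were higher and 1 lower (median 1.67), led by the chemerin gene Rarres2 (13.40), the insulin receptor substrate gene Irs1 (10.07) and the adrenergic receptor gene Adrb3 (9.36).

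Across the MSC libraries, the abundant members differed by batch. Adipoq had 1458 to 2039 CPM in the 6 MSC libraries of batch C and 725.5 to 1252 CPM in the 4 of batch A. With treatment in the model, batch C exceeded batch A by a log2 difference of 1.18 for Apoe (SE 0.17, adjusted p = 0.000725), 1.11 for Lpl (SE 0.225, adjusted p = 0.0072) and 0.93 for Adipoq (SE 0.176, adjusted p = 0.00424). Of 15984 genes, 723 (4.52%) were called for batch, 3.41% higher in batch C and 1.11% lower. Pparg (0.03), Zfp423 (0.13), Fabp4 (0.39), Cd36 (1.45) and Plin1 (-0.53) were not called. This comparison was added after the levels were seen.

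The treatment comparison asked whether blocking PAPP-A changed these genes in stroma. With batch in the model, none of the 8 members were called in MSC. Over all genes, 5 of 15984 (0.0313%) were called, 676 (4.23%) had an unadjusted p under 0.05, and DESeq2 called 43. With 1 library left out, 0 to 4 genes were called, and none were without pool 8, 17, 19 or 20. The members' log2 differences were positive for 6 and negative for 2, with a median of 0.27 against -0.03 over all genes, and every adjusted p was 0.999. A p that misses the threshold does not show that the levels were equal.

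Adipoq had lower values under treatment in batch C. It had 789 CPM in aPAPPA pool 8 and 1655, 1658 and 1458 CPM in aPAPPA pools 16, 18 and 20, against 1187, 1252 and 725.5 CPM in control pools 3, 5 and 7 and 1902, 2039 and 2013 CPM in control pools 15, 17 and 19. In batch C, every treated library lay below every control library. In batch A, the single treated library lay inside the control range. The means were 1390 ± 411 CPM in aPAPPA MSC and 1520 ± 543 CPM in control MSC, and the log2 difference with batch in the model was -0.36 (SE 0.173, unadjusted p = 0.0531, adjusted p = 0.999 by edgeR). In batch C alone it was -0.33. Of 15984 genes, 951 (5.95%) had all 3 treated libraries of batch C below all 3 controls and 817 (5.11%) had them above. Osteoblast marker sums also stood lower in batch C, at 9936 to 11260 CPM in aPAPPA MSC and 14180 to 16730 CPM in control MSC. In batch A the treated sum, 17530 CPM, lay inside the control range of 11170 to 28630 CPM. Differences were negative for 9 and positive for 3 of the 12 osteoblast genes (median -0.61), with Spp1 at 0.35. Among the 12, Ibsp, which encodes bone sialoprotein, was called lower (log2 difference -0.99, SE 0.174, adjusted p = 0.0437 by edgeR). That call was lost without pool 8, 17, 19 or 20, when no gene was called. The part of the osteoblast genes in the Adipoq values was not tested.

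Lpl tended the other way. It had 2218 CPM in aPAPPA pool 8 and 4708, 3954 and 2208 CPM in aPAPPA pools 16, 18 and 20, against 904.6, 1383 and 1315 CPM in control pools 3, 5 and 7 and 3772, 2913 and 2489 CPM in control pools 15, 17 and 19. The treated library of batch A was above its 3 controls, while in batch C the groups overlapped. Here and below, the share of all genes with such an order in batch A was not computed. An order of 1 library against 3 says little by itself. The log2 difference was 0.47 (SE 0.215, unadjusted p = 0.0426, adjusted p = 0.999 by edgeR), and 0.24 in batch C alone as well as without pool 8, the treated library with 499300 counts.

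Pparg had the same shape. It had 144.9 CPM in aPAPPA pool 8 and 144.7, 99.27 and 42.39 CPM in aPAPPA pools 16, 18 and 20, against 55.75, 59.07 and 74.41 CPM in control pools 3, 5 and 7 and 83.78, 102.5 and 56.03 CPM in control pools 15, 17 and 19. The treated batch C libraries held both the highest and the lowest value of that batch. The log2 difference was 0.55 (SE 0.312, unadjusted p = 0.0953, adjusted p = 0.999 by edgeR), and 0.24 in batch C alone, as without pool 8.

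Apoe, the most abundant member, was near equal in the treated and control groups. It had 2858 CPM in aPAPPA pool 8 and 5858, 5538 and 4988 CPM in aPAPPA pools 16, 18 and 20, against 2478, 2575 and 1705 CPM in control pools 3, 5 and 7 and 6175, 5955 and 4887 CPM in control pools 15, 17 and 19. The treated library of batch A was above its 3 controls, the groups overlapped in batch C, and the log2 difference was 0.08 (SE 0.163), with -0.06 in batch C alone.

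Zfp423 averaged 35.2 ± 18.0 CPM in aPAPPA MSC and 36.9 ± 6.76 CPM in control MSC, with a log2 difference of -0.01 (SE 0.334) that was 0.35 in batch C alone. The treated libraries ranged from 14.09 to 57.11 CPM, a wider span than the 24.73 to 43.41 CPM of the controls. Fabp4 averaged 26.9 ± 6.43 CPM in aPAPPA MSC and 29.1 ± 20.9 CPM in control MSC, with a log2 difference of 0.06 (SE 0.411), and the highest control, pool 7 at 68.21 CPM, rested on 11 counts. On plain library totals pool 7 had 34.18 CPM, and the control MSC averaged 22.6 ± 8.76 CPM.

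The sparse members were the least certain. Plin1 had 86 counts over the 4 aPAPPA MSC libraries and 16 over the 6 control libraries. It had 0 CPM in aPAPPA pool 8 and 2.70, 0.747 and 1.34 CPM in aPAPPA pools 16, 18 and 20, against 1.21, 0 and 0 CPM in control pools 3, 5 and 7 and 0, 0.648 and 0 CPM in control pools 15, 17 and 19. All 3 treated libraries of batch C were above all 3 controls, as for 5.11% of all genes, at levels near 1 CPM, and the log2 difference of 2.09 had an SE of 2.04. Cd36 averaged 4.29 ± 3.25 CPM in aPAPPA MSC and 1.32 ± 1.32 CPM in control MSC, with a log2 difference of 1.27 (SE 1.19). Cd36 was highest in WBM, so blood cell markers in MSC are given beside it. Differences were positive for 10 of 12 neutrophil genes (median 0.75), 9 of 13 erythroid and megakaryocyte genes (median 0.35) and 4 of 10 lymphoid and plasma cell genes (median -0.35), and none were called. In batch C the erythroid and megakaryocyte sums were 620, 787 and 915 CPM in aPAPPA MSC and 521, 1044 and 1439 CPM in control MSC, with 620 CPM in pool 16, which had the highest Cd36 level, and the neutrophil sums were 1776, 2300 and 1937 CPM in aPAPPA MSC and 1664, 1283 and 1881 CPM in control MSC. Both sums were highest in pool 8 of batch A, at 5151 and 13530 CPM. Their part in the Cd36 values was not tested.

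The other fat-cell lists had no called gene in MSC under treatment. Positive and negative differences were counted as 12 and 9 of 21 tested regulators (median 0.04), 2 and 8 of 10 inhibitors (median -0.19), 5 and 5 of 10 droplet and lipolysis genes (median 0.05), 6 and 7 of 13 synthesis genes (median -0.05), 6 and 10 of 16 uptake and lipoprotein genes (median -0.06) and 7 and 5 of 12 adipokines and hormone inputs (median 0.05). Markers of adipo-lineage stroma had 9 positive and 3 negative of 12 (median 0.13).

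**Figure D3:**
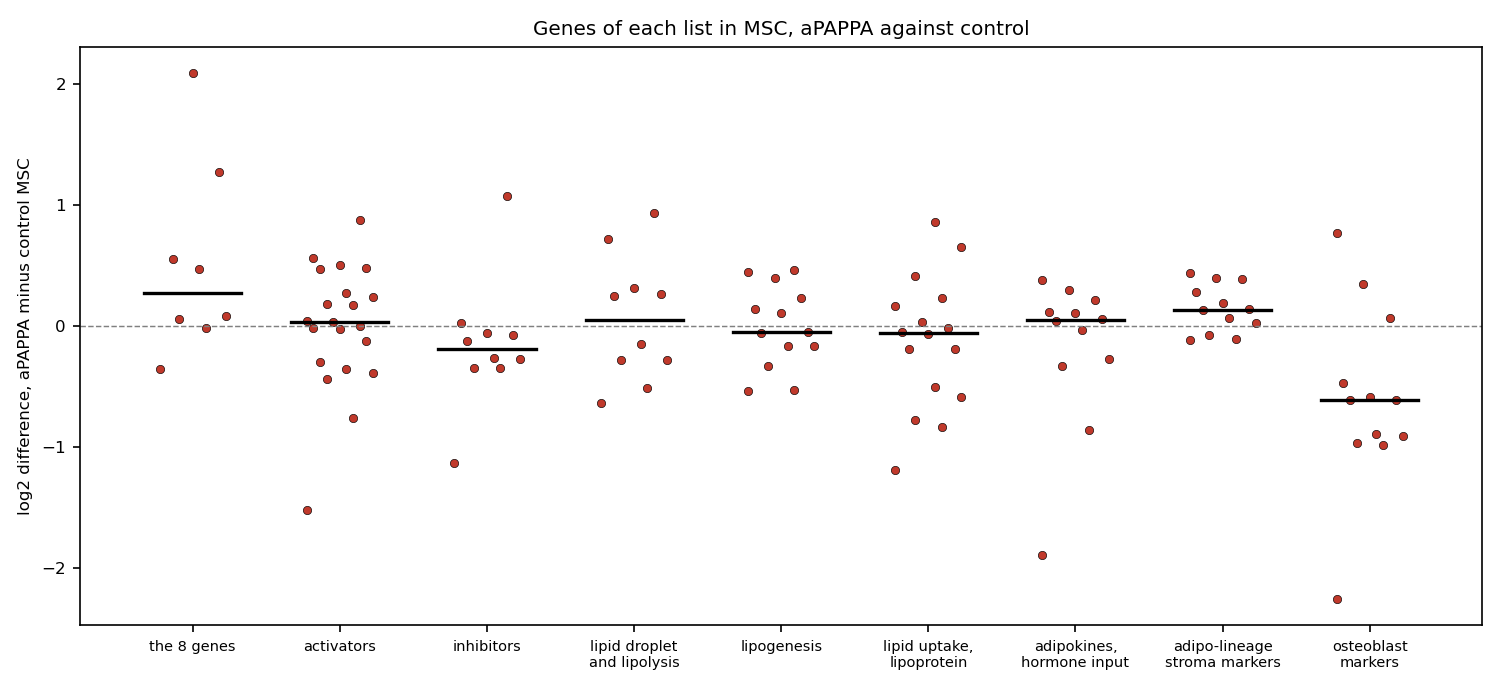
Log2 difference between aPAPPA and control MSC for every tested gene of the members and of the fat-cell, adipo-lineage stroma and osteoblast lists, with a bar at the list's median. The fat-cell lists centre near 0 and the osteoblast list lies lower (median -0.61).

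Angptl4, which encodes a secreted inhibitor of lipoprotein lipase and is a PPAR target, had the smallest p of the lipid genes. It had 499.2 CPM in aPAPPA pool 8 and 733.2, 647.7 and 402.9 CPM in aPAPPA pools 16, 18 and 20, against 141.7, 141.8 and 198.4 CPM in control pools 3, 5 and 7 and 552.7, 417.9 and 343.9 CPM in control pools 15, 17 and 19. The treated library of batch A was above all its controls, and the groups of batch C overlapped. The log2 difference was 0.86 (SE 0.239, unadjusted p = 0.002, adjusted p = 0.689 by edgeR), 0.43 in batch C alone and 0.44 without pool 8. With no filter on low counts it was 0.88 and was called (adjusted p = 0.00353).

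Apod, which encodes a lipid carrier of the lipocalin family, averaged 437.6 CPM in aPAPPA MSC and 257.1 CPM in control MSC (log2 difference 0.65, SE 0.211, unadjusted p = 0.00574, adjusted p = 0.843 by edgeR). Klf15, a factor that promotes adipogenesis, had 22.21, 29.57 and 26.99 CPM in aPAPPA pools 16, 18 and 20, against 10.5, 9.903 and 16.81 CPM in control pools 15, 17 and 19, with no overlap, again as for 5.11% of all genes. In batch A it had 24.15 CPM in aPAPPA pool 8 and 12.4 to 22.93 CPM in the controls, and the log2 difference over both batches was 0.87 (SE 0.366, adjusted p = 0.999). Scd2, a desaturase gene, was lower in the treated library or libraries of each batch than in every control of that batch, with 76.48 CPM in the aPAPPA library and 93.02 to 120 CPM in the controls of batch A, and 79.09 to 120.6 CPM in the aPAPPA libraries and 124.2 to 161.3 CPM in the controls of batch C (log2 difference -0.53, SE 0.193, adjusted p = 0.96 by edgeR). Of all genes, 5.95% lay wholly below in batch C, and the share for batch A was not computed. None of Apod, Klf15 and Scd2 were called.

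The remaining genes with the smallest p of their lists were further from the threshold. The triglyceride lipase gene Pnpla2 averaged 42.3 CPM in aPAPPA MSC and 24.1 CPM in control MSC (log2 difference 0.72), and the droplet coat gene Plin2 82.9 and 62.0 CPM (0.31). Bmp4 averaged 265.8 CPM in aPAPPA MSC and 180.8 CPM in control MSC (0.56), and the signal transducer gene Stat5a 65.7 and 89.4 CPM (-0.44). The fatty acid synthase gene Fasn averaged 53.2 CPM in aPAPPA MSC and 35.6 CPM in control MSC (0.40, but -0.03 without pool 8). Log2 differences were 0.41 for the cholesterol exporter gene Abca1, -0.51 for Plin3, 0.25 for the lipolysis co-activator gene Abhd5 (-0.15 without pool 8), 0.45 for Me1 and -0.33 for Scd1. Among the inhibitors they were -0.26 for Foxo1, -0.35 for Ddit3, -0.35 for Hes1 and 1.07 for Gata2, and -0.39 for the regulator Zfp467. The adiponectin receptor genes Adipor1 and Adipor2 had 0.30 and 0.38, Rarres2 -0.27 and the adipsin gene Cfd, at 0.742 CPM in aPAPPA MSC and 2.16 CPM in control MSC, -1.90. All of these missed the threshold.

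Outside the stroma, no member was called under treatment either. In HSC, 1 of 14494 genes was called (0.0069%), with 1156 at an unadjusted p under 0.05 and 3 by DESeq2, and 149 were called without aPAPPA pool 8. None were called (0%) of 12520 in CLP, of 15334 in GMP, of 13307 in MEP or of 16803 in Myeloid cells, by edgeR. The count at an unadjusted p under 0.05 was 29 genes for CLP, 195 for GMP, 444 for MEP and 437 for Myeloid cells, and DESeq2 called 0, 0, 12 and 1 genes in these.

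Apoe was tested in all 6 sorted populations and its difference was positive in each, and the same held for Lpl. The share of all genes with 1 sign in all 6 was not computed. In GMP, Apoe had 73.31, 65.74, 96.99 and 58.71 CPM in aPAPPA pools, against 33.52, 51.31, 60.82 and 53.11 CPM in control pools. Only the lowest treated pool lay inside the control range. The log2 difference in GMP was 0.58 (SE 0.173, unadjusted p = 0.00758, adjusted p = 1 by edgeR). In Myeloid cells of batch B it had 255.1, 270.2 and 263.2 CPM in aPAPPA pools, against 128.7, 124 and 174.5 CPM in control pools, with no overlap. Of 16803 genes, 461 (2.74%) lay wholly above in that batch and 246 (1.46%) wholly below. In Myeloid cells of batch C the groups overlapped, at 67.39, 89.45 and 110.1 CPM in aPAPPA pools and 57.87, 87.57 and 112.8 CPM in control pools. The Myeloid log2 difference was 0.48 (SE 0.207, unadjusted p = 0.0337, adjusted p = 0.995 by edgeR), with 0.90 in batch B alone and 0.07 in batch C alone. CLP had 21.56, 24.95, 26.7 and 41.9 CPM in aPAPPA pools and 9.556, 17.85, 10.97 and 26.99 CPM in control pools (0.75, SE 0.346). HSC and MEP had smaller differences, 0.28 (SE 0.23) and 0.25 (SE 0.254). The mean of the 6 Apoe differences, a comparison added after their signs were seen, was 0.38 (SE 0.109, unadjusted p = 0.00108, adjusted p = 0.237 by edgeR), where 2 of 21525 genes (0.00929%) were called, and it was 0.45 (adjusted p = 1) with mouse pool as a block. For Lpl the mean was 0.51 (SE 0.271, unadjusted p = 0.068, adjusted p = 0.651 by edgeR). Several populations came from the same pools, so the 6 differences of a gene are not independent.

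**Figure D4:**
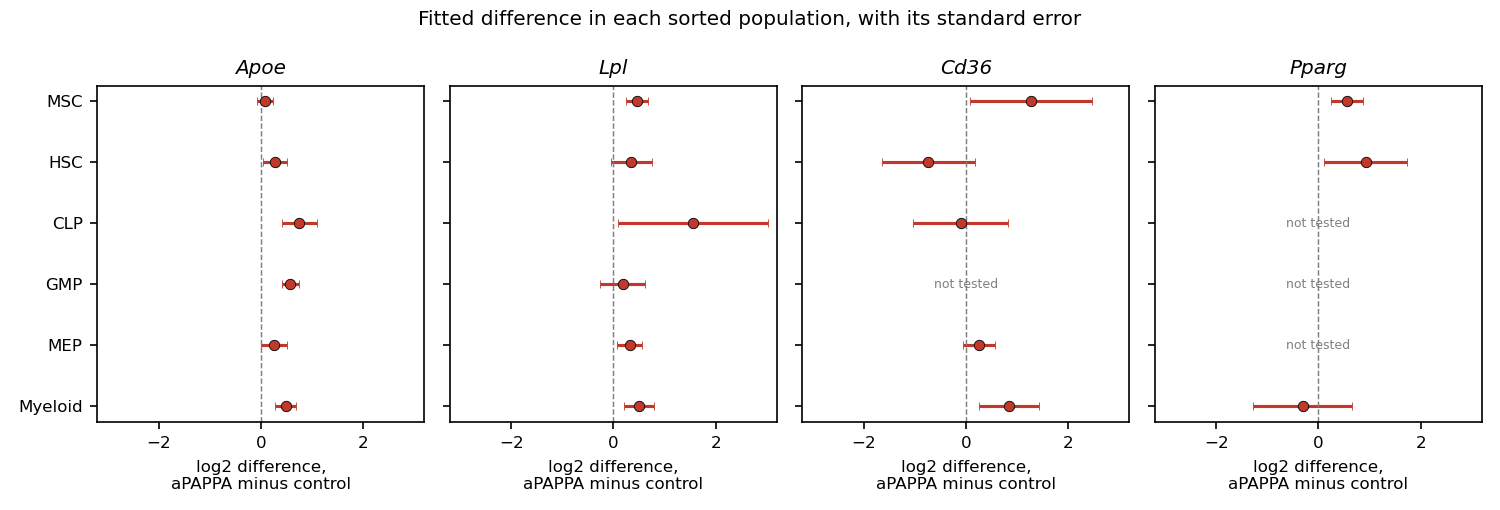
Log2 difference between aPAPPA and control with its SE for Apoe, Lpl, Cd36 and Pparg in each sorted population, marked as not tested where the gene was filtered for low counts. Apoe lies above 0 in all 6 populations, from 0.08 in MSC to 0.75 in CLP. Lpl also does, from 0.18 in GMP to 1.56 in CLP, and no difference was called.

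Besides MSC, Lpl passed the low-count filter of the treatment test in every sorted population and Cd36 in all but GMP. Pparg passed it in HSC and Myeloid cells, Fabp4 in Myeloid cells only, and Adipoq, Plin1 and Zfp423 in none. Lpl had log2 differences of 0.35 in HSC, 1.56 in CLP (SE 1.46), 0.18 in GMP, 0.32 in MEP and 0.50 in Myeloid cells (SE 0.29), and without aPAPPA pool 2 the CLP difference was -0.83. Pparg had 0.93 in HSC and -0.31 in Myeloid cells, and Cd36 had -0.73 in HSC, -0.10 in CLP, 0.26 in MEP and 0.85 in Myeloid cells. Fabp4 in Myeloid cells averaged 4.06 ± 5.81 CPM in aPAPPA and 1.35 ± 1.51 CPM in control (log2 difference 1.46, SE 0.746, unadjusted p = 0.07, adjusted p = 0.995 by edgeR), with 1 treated library, pool 16, at 15.84 CPM and a difference of 0.67 without it. Whether the response in MSC differed from the mean response of the 5 other populations was tested as an interaction, where 553 of 21525 genes (2.57%) were called. No member was among them: the difference of the log2 differences was -1.88 for Adipoq (SE 1.03, adjusted p = 0.45), -1.32 for Fabp4, -0.35 for Apoe, -0.04 for Lpl, 0.15 for Pparg and 0.79 for Cd36. The sizes for Adipoq and Fabp4 rest in part on populations where the gene had been filtered for low counts. Adipoq counts summed to 3 in aPAPPA and 0 in control HSC, 2 and 1 in CLP, 6 and 1 in GMP, and 2 and 3 in MEP.

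Adipoq counts outside MSC were concentrated in Myeloid cells of batch C. There it had 4.405, 5.323 and 4.837 CPM in aPAPPA pools, against 2.794, 0.1501 and 1.018 CPM in control pools, with no overlap. In batch B it had 0, 0 and 0.159 CPM in aPAPPA pools and 0.123, 0 and 0.0753 CPM in control pools. Of all Myeloid genes tested in treatment, 6.43% had every treated library above every control in batch C and 15.5% did not overlap in either direction. Adipoq itself was filtered out of that test. Of the 12 adipo-lineage stroma markers, 10 had a higher mean in batch C than in batch B, 11 had a higher mean in aPAPPA than in control pools of batch C, and 6 had every treated library above every control there. Their sum ran the other way, at 1281 to 1852 CPM in aPAPPA and 1609 to 2425 CPM in control pools of batch C and 3130 to 4315 CPM over batch B, and most of it was Hp, at 1056 to 1593 CPM in aPAPPA and 1433 to 2316 CPM in control pools of batch C. In the same batch C libraries, Cxcl12 had 123.9, 85.25 and 126.5 CPM in aPAPPA pools, against 66.11, 9.229 and 36.78 CPM in control pools, and the leptin receptor gene Lepr had 8.038, 6.936 and 13.54 CPM in aPAPPA pools, against 7.28, 0.975 and 2.918 CPM in control pools. Cxcl12 was at most 1.06 CPM in every Myeloid library of batch B. The part of stromal RNA in these values was not tested.

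**Figure D5:**
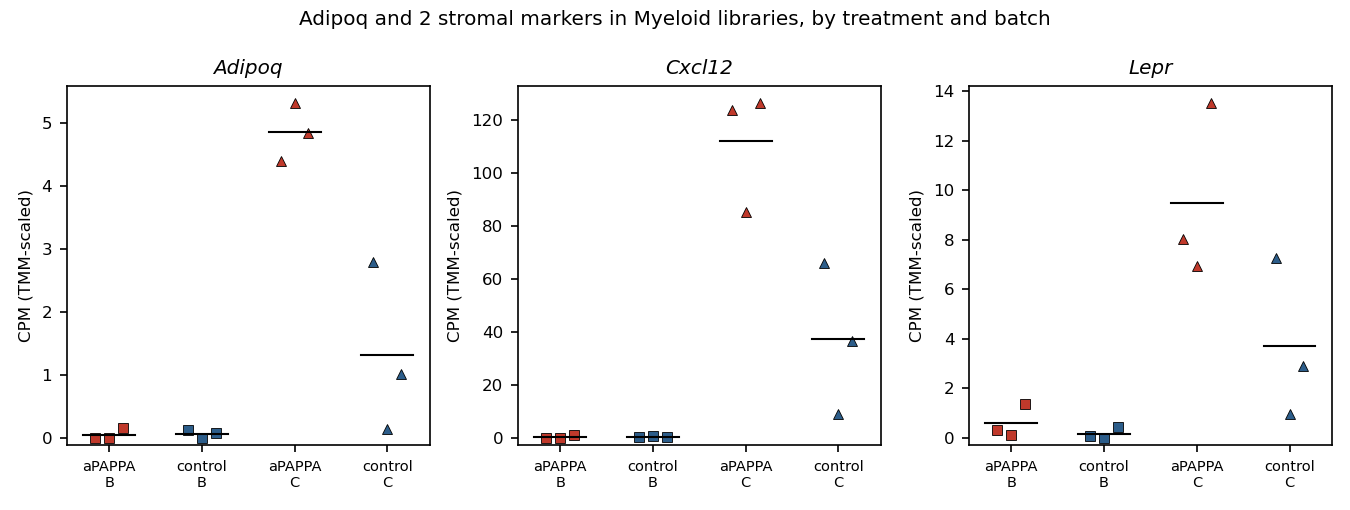
CPM of Adipoq, Cxcl12 and Lepr in each Myeloid library by batch, aPAPPA left of control. All 3 genes are at most 1.38 CPM in batch B, and in batch C each treated library exceeds all control libraries for Adipoq (4.405 to 5.323 CPM against 0.1501 to 2.794 CPM) and Cxcl12.

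The genes whose pattern over the 13 group means of log2(CPM + 1) was most like a member's were found among 22211 genes by Pearson r. Since MSC stands far from the other groups, the points for the stromal members are MSC at one end and all other groups at the other. For Adipoq they were the collagen gene Col6a1, Nnmt and Fbln5 (r = 0.9996, 0.9996 and 0.9994), for Zfp423 Gas1 (0.9992), Ism1 and Osmr, for Lpl C1qtnf1 (0.992), Pknox2 and Snx21, and for Pparg Gm2115 (0.9927), Mdk and Ddr1. Fabp4 had Ctsk (0.9832), the collagen gene Col1a1 and Aspn, and Apoe had Enpp5 (0.9706), Tmem55a and Rusc2. Cd36 stood apart from these, with the lymphocyte receptor gene Il2rb (0.9332), Samd3 (0.8979) and Fam46c. Plin1, at its low counts, had Slitrk6 (0.9958), Uts2r and Radil.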

How the data were processed

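Bulk RNA-seq libraries (NEBNext Ultra II Directional kit, HiSeq, per the labels) were made from sorted or unsorted marrow. The deposited values are estimated counts per gene; the authors used FastQC 0.11.5, Salmon and mm10, per the submitters' processing notes, and the Salmon version is not given in the sources used here. Repeated gene and sample lines of the table held identical values and were used once. Counts were rounded to whole numbers.

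CPM used 1 TMM scaling of all 57 libraries. Each comparison was fitted with edgeR 4.0.16 (R 4.3.3; robust quasi-likelihood, filterByExpr, batch as a term where a population had more than 1 batch), with Benjamini-Hochberg adjustment over all genes. Alternatives used DESeq2 1.42.0 and limma 3.58.1. Positions are from GENCODE M21. Within 1 population, the p-values measure the spread between mouse pools. The main comparisons across populations used several libraries of the same pool without a pool term. Their p-values measure the spread between libraries.

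The 8 members and the gene lists were chosen with earlier results of these data known. The genes named were all members; in each fat-cell list, the called genes or else the 4 with the smallest p in MSC, and the 3 largest MSC differences; the 3 highest markers of each marker list; and the 3 most alike genes by Pearson r. One gene that this rule names is not reported here.

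Pool numbers are shared by populations of the same mice. Deviations of libraries from the same pool had a median correlation of 0.0457 (33 pairs), against -0.0158 for different pools (96 pairs).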

Additional observations from a re-analysis of the deposited data

Results flagged for a closer look

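A library was singled out when its gap to the nearest other library of its group was large for the group's range (Dixon's 95% criterion, groups of 4 to 10), among members with at least 10 counts there. This held for 9 of 54 combinations of member and group. Chance gives about 1 in 20 for normal values of a uniform group. Here CPM were used without logs and some groups mix batches, so the count cannot be set against that rate. For Lpl these were aPAPPA CLP pool 2 at 96.23 CPM (next 13.08), aPAPPA MEP pool 6 at 7.084 CPM (next 4.608) and WBM pool 15 at 50.45 CPM (next 23.62). In CLP pool 2, Pparg was also at 9.384, Cxcl12 at 64.69 and Lepr at 8.385 CPM. WBM pool 15 was also highest for Cd36, at 37.69 CPM (next 14.06), and it was the only WBM library of batch C. For Pparg, control Myeloid pool 19 had 4.953 CPM (next 1.876). For Fabp4, aPAPPA Myeloid pool 16 had 15.84 CPM (next 2.902), control MSC pool 7 had 68.21 CPM from 11 counts of 321860, and control Myeloid pool 17 had 4.277 CPM (next 1.561). The MSC pool 7 value reflects a TMM factor of 0.501 and was 34.18 CPM on plain library totals. Pool 16 was also highest for Cd36 among aPAPPA Myeloid libraries, at 10.12 CPM (next 4.432). No explanation was tested for any of these.

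Adipoq had opposite orders of libraries in batch C: every aPAPPA library lay below every control library in MSC, and above every control library in Myeloid cells. This was so for 5.95% of genes tested in MSC and 6.43% of those tested in Myeloid cells. Adipoq was not called in MSC and was not tested in Myeloid cells, for its low counts. The log2 difference in MSC minus the mean of that in the other 5 populations was -1.88 (SE 1.03, adjusted p = 0.45), and the difference between MSC and Myeloid cells itself was not tested. That mean rests in part on groups with few Adipoq counts, such as 3 over all aPAPPA HSC and 0 over all control HSC libraries.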

How the results depend on the processing

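Of 1143 values recomputed under alternatives, 1100 kept direction and side of the threshold, 40 changed sign, 2 lost and 1 gained the call; the cause was not tested. Called genes in MSC under treatment numbered 5, against 55 with no low-count filter, 43 by DESeq2, 0 by limma voom with quality weights, 3 in batch C alone, 1 with no batch term, 2 without libraries under 1000000 counts and 0 to 4 with 1 library left out. In HSC they numbered 1, against 181 with no filter, 3 by DESeq2 and 1 to 149 with 1 library left out, the highest without pool 8; in MEP 0, against 2 with no filter, 12 by DESeq2 and 0 to 1 with 1 left out; in Myeloid 0, against 112 with no filter and 1 by DESeq2. Calls for the mean response numbered 2, and 0 to 7 under its alternatives. With mouse pool as a replicate block, control MSC differed from the other populations in 9832 genes and from WBM in 5747; the block ended the call of Fabp4 against WBM (1.56) and of no other member. Cav1 lost its sort call under 1 alternative (0.61). In MSC the sign turned in batch C alone and without the shallow libraries for Zfp423 (0.35 and 0.36), Apoe (-0.063 and -0.055), Abhd5 (-0.15 and -0.14) and Fasn (-0.027 and -0.021); with no batch term for Zfp423 (0.018), Ddit3 (0.057) and Hes1 (0.16); and under limma for Gata2 (-0.21). It also turned for Pparg in Myeloid batch B alone (0.67), Plin5 by DESeq2 in the sort (1.06), and in the interaction for Pparg without shallow libraries (-0.091) and Lpl with no batch in the intercepts (0.087). Leaving out 1 library gave, in MSC, Abhd5 -0.15 to 0.42, Apoe -0.062 to 0.14, Fabp4 -0.072 to 0.22, Fasn -0.026 to 0.54, Hes1 -0.66 to 0.076 and Zfp423 -0.29 to 0.35; elsewhere, Apoe in MEP -0.023 to 0.39, Cd36 in CLP -0.57 to 0.30, Lpl in CLP -0.83 to 2.92, Lpl in GMP -0.079 to 0.53, Pparg in Myeloid -1.14 to 0.080 and Cd36 in the sort -6.02 to 0.070. Adjusted p over alternatives ran 0.54 to 1 for Adipoq, 0.463 to 1 for Lpl and 0.613 to 1 for Pparg in MSC, and 0.175 to 1 for the mean Apoe response. In MSC, 2 of 4 batch A libraries held under 1000000 counts.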

Other observations

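The markers of other cell types in MSC stood beside the members as follows. Macrophage and monocyte markers summed to 212 to 2142 CPM in aPAPPA MSC and 137 to 3770 CPM in control MSC, and 8 of 11 tested genes had positive treatment differences (median 0.39). Endothelial markers summed to 70.5 to 93.2 CPM in aPAPPA MSC and 68.3 to 136 CPM in control MSC, and 2 of 7 tested genes had positive differences. Lymphoid and plasma cell markers summed to 447.2 to 1371 CPM in aPAPPA MSC and 389.9 to 10520 CPM in control MSC. None of these genes were called.

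Control MSC held every tested osteoblast marker at a higher level than the other sorted populations (12 of 12), together with all 12 markers of adipo-lineage stroma. Among the osteoblast markers, the matrix genes Col1a1, Spp1 and Ibsp had the highest levels, with Col1a1 at 1941 to 21600 CPM. Against WBM, 12 of 12 neutrophil markers, 12 of 13 macrophage markers and 13 of 14 erythroid and megakaryocyte markers were lower in control MSC.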
